A study of Mus musculus with 2 samples.

Results

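The bicistronic Nd4l/4 mRNA of mouse mitochondria carries the reading frames of mt-Nd4l and mt-Nd4 on 1 RNA. LRPPRC-binding sites on this mRNA were taken from PAR-CLIP of mouse embryonic fibroblasts (MEFs), connective-tissue cells grown from embryos. A site was counted as a member when at least 1 nt of it overlapped the gene body of mt-Nd4l or mt-Nd4 on the plus strand. This gave 5 of the 48 mitochondrial sites and of the 552 sites in the whole list. Of the 9 minus-strand mitochondrial sites 0 lay opposite the mRNA. The mRNA spans 1668 of the 16299 nt of the genome, so this count of 0 is too small a basis for a conclusion. In PAR-CLIP, cells incorporate 4-thiouridine into new RNA, ultraviolet light joins it to bound protein, and the joined uridine is then read as C. A called site is a region with such positions. The list does not say which of its bases touched the tagged protein. The MEFs came from Lrpprc-FLAG transgenic mice, and the labels of both samples state that LRPPRC-FLAG was induced with 2 μg/ml doxycycline for 72 h. The series comprised 1 control and 1 experimental sample. The labels do not say how the control cells or the control precipitation differed, and only sites of the experimental sample were analysed here. The bound protein is therefore the epitope-tagged form. The published methods give the doxycycline step after the human HeLa line and do not say whether it included the MEFs. The induction of these cells thus rests on the labels alone. No value below has replicates or a test between samples.

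Nd4l and Nd4 are subunits of the membrane arm of complex I, the NADH dehydrogenase of the respiratory chain. Nd4 belongs to the antiporter-like subunits that take part in proton pumping, and Nd4l is a small subunit of the same arm. The 2 frames are cut from the long heavy-strand transcript together and are not separated, so that the mitochondrial ribosome has to find the start codon of Nd4 inside the mRNA. LRPPRC is a pentatricopeptide repeat protein that binds mitochondrial mRNAs as a complex with SLIRP and is known to maintain them and their poly(A) tails.

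In mm10, mt-Nd4l (ENSMUSG00000065947.3) runs from position 9877 to 10173 of the mitochondrial genome and mt-Nd4 (ENSMUSG00000064363.1) from 10167 to 11544. The mRNA is thus 1668 nt long, and its gene bodies are coding sequence throughout. Both frames open with AUG. Nd4l has 99 codons, the last of them a stop, and Nd4 has 459 whole codons followed by 1 base, a U. In mammalian mitochondria such a base becomes a stop codon once the poly(A) tail is added. The frames share 7 bases, AUGCUAA, in which the start codon of Nd4 comes first and the stop codon of Nd4l last. On the plus strand, 1 base separates the mRNA from mt-Tr (tRNA-Arg) upstream and 1 base separates it from mt-Th (tRNA-His) downstream.

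The stretches given next locate the sites relative to its ends and to the frame junction, and are written as RNA read 5′ to 3′ on the plus strand of mm10. In the opening of site 1 (chrM:9876-9975), capitals mark the start codon of Nd4l and each CACU word. In the gap that holds the junction (chrM:10086-10181), capitals mark the 7 shared bases. In the end of the mRNA (chrM:11487-11544), capitals mark the bases after the last site.
opening of site 1: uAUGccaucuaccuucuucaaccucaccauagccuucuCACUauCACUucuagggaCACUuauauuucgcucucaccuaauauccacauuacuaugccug
gap at the frame junction: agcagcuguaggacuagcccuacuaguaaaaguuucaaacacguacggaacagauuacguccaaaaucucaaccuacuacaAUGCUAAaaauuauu
end of the mRNA: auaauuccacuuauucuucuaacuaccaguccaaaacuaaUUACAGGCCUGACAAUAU

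Sites covered most of the mRNA. Of its 1668 bases, 1304 lay in a site, a share of 78.2% (95% Wilson interval 76.1 to 80.1%, which covers counting error only and treats neighbouring bases as independent). The remaining 364 bases fell into 5 gaps. Nd4l was covered over 209 of its 297 bases (70.4%) by 1 site, and Nd4 over 1095 of its 1378 bases (79.5%) by the other 4 sites. Coverage along Nd4 was uneven. When its 459 codons were cut into 3 equal stretches, 96.7% of bases were covered in the first stretch, 59.5% in the middle one and 82.4% in the last.

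**Figure D1:**
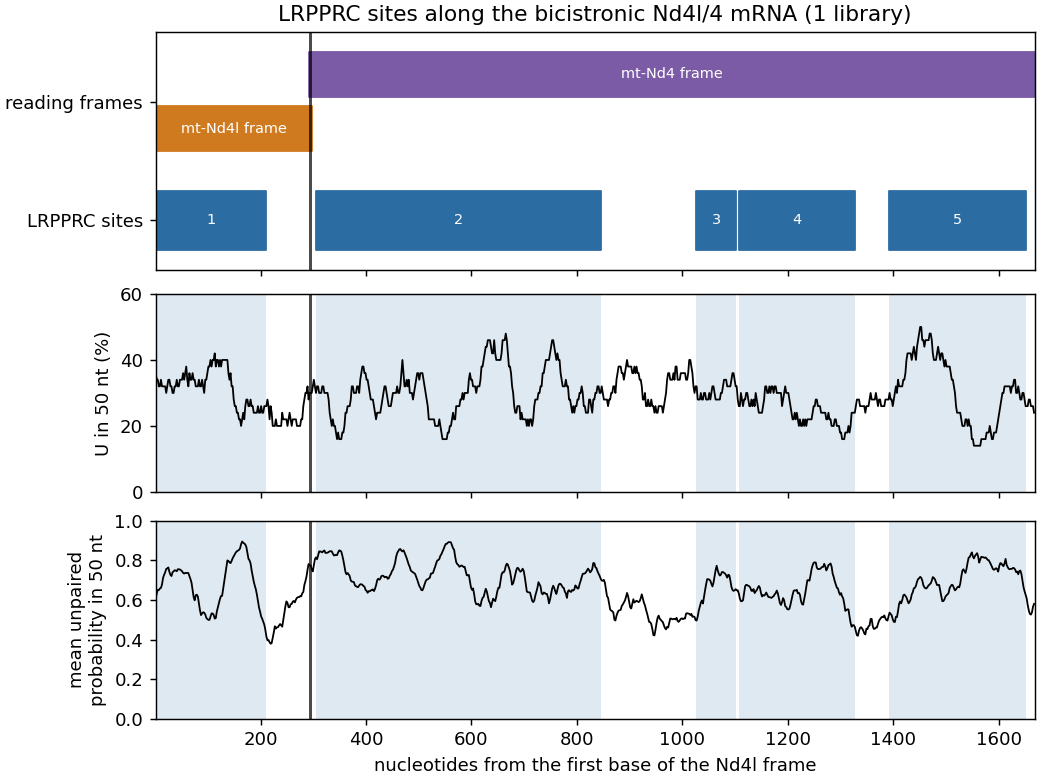
Map of the Nd4l/4 mRNA, with nucleotides from the first base of Nd4l on the x axis. The upper panel shows the 2 reading frames and sites 1 to 5, of which site 1 also holds 1 base upstream of the mRNA, and the black line marks the 7 bases shared by both frames. The middle and lower panels show the U share (%) and the mean predicted unpaired probability in windows of 50 nt, with sites shaded; the unpaired probability dips in the unshaded stretches after sites 1, 2 and 4, while the U share rises and falls within both sites and gaps.

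Site 1, at chrM:9876-10085, was 210 nt wide. It began with the first base after mt-Tr, 1 base upstream of the start codon of Nd4l, and held 0 bases of the tRNA. It reached from codon 1 to codon 70 of Nd4l and thus held the start of the frame and most of its encoded protein. The segment was hydrophobic, with a mean Kyte-Doolittle hydropathy of 1.17 over 69 whole codons, and 49.3% of these encoded leucine, isoleucine, methionine, valine or phenylalanine. Charged residues (here Asp, Glu, Lys, Arg and His) were encoded by 3 of the 69 codons.

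Gap 1, at chrM:10086-10181, was 96 nt wide and separated the site of Nd4l from those of Nd4. It held codons 70 to 99 of Nd4l and codons 1 to 5 of Nd4, and with them the stop codon of the former and the start codon of the latter. Of the 7 shared bases 0 lay in a site. The end of site 1 was 81 nt upstream of them and the start of site 2 was 8 nt downstream. Coverage around the junction was therefore one-sided. Of the 50 bases before the shared bases 0 were covered, and of the 50 bases after them 42 (84.0%) were covered. The paper describes binding both toward the 3′ end of Nd4l and toward the 5′ end of Nd4. In the list read here the only site of Nd4l ended in codon 70. The reason for this difference was not tested.

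Site 2, at chrM:10182-10720, was 539 nt wide and held 32.3% of the mRNA on its own. It opened at the first base of codon 6 of Nd4 and ended in codon 185. Its segment encoded 18 charged residues in 179 whole codons, and its mean hydropathy was 0.68. Its opening is shown because it is the covered sequence closest to the frame junction, with CACU words in capitals (chrM:10182-10241).
opening of site 2: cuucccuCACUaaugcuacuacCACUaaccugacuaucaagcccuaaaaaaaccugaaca

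Gap 2, at chrM:10721-10901, was the longest uncovered stretch at 181 nt and spanned codons 185 to 245 of Nd4. Site 3 followed at chrM:10902-10977 and was the narrowest, with 76 nt over codons 246 to 271. Only gap 3, the 5 bases uaacu at chrM:10978-10982, separated it from site 4 at chrM:10983-11202, which was 220 nt wide and reached codon 346. When sites at most 50 nt apart were merged, sites 3 and 4 became 1 and the count of sites fell from 5 to 4. Site 4 encoded 9 charged residues in 73 whole codons, a share of 12.3% and the highest among the 5 sites, and site 1 had the lowest with 4.35%.

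Gap 4, at chrM:11203-11266, was 64 nt wide and spanned codons 346 to 367, and 0 of its 20 whole codons encoded a charged residue. Site 5, at chrM:11267-11526, was 260 nt wide and ended in codon 454. Gap 5 was formed by the last 18 nt of the mRNA, at chrM:11527-11544. The final base of Nd4 and the codons before it were thus outside any site, whereas the first codon of Nd4l was inside one. Over the first 50 nt of the mRNA 100% of bases were covered, and over the last 50 nt 64.0%. The nearest plus-strand sites beyond the mRNA were at chrM:9671-9744 in mt-Nd3, 132 nt upstream, and at chrM:11713-11852 in mt-Tl2 and mt-Nd5, 168 nt downstream.

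Because 4-thiouridine replaces U, a call needs a U in the read, and the U content of sites and gaps was compared first. U made up 29.4% of covered bases (384 of 1304) and 29.4% of uncovered bases (107 of 364), a difference of 0.05 percentage points. The interval of this difference, from -5.39 to 5.17, holds 0, and its sign changed between alternatives. By site, U ranged from 24.5% in site 4 to 32.4% in site 1. By gap of at least 10 nt it ranged from 23.96% in gap 1 to 32.6% in gap 2, so that the 2 ranges overlapped. Gap 2 held 59 U, or 1 every 3.07 nt, against 1 every 3.09 to 4.07 nt in the sites. The longest stretch without U was 19 nt, in site 5, and the next were 16 nt in site 2 and 15 nt in site 5. Gap 1 had the lowest U share of these segments, below the lowest site. With 10 nt taken off both ends of each site the difference in U was 2.18 points, with covered bases the richer. The part of U availability in the gaps was not tested, and the depth of reads over them is not in the list.

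The shares of G and C were further apart between sites and gaps than that of U. G made up 8.36% of covered bases and 15.9% of uncovered bases, a difference of -7.58 percentage points (95% interval -11.9 to -3.80, under the same assumption as above). The 5 sites had 6.15 to 12.3% G and the 4 gaps of at least 10 nt had 14.6 to 18.8% G, without overlap. C ran the other way, with 28.1% of covered and 21.4% of uncovered bases, a difference of 6.64 points (1.55 to 11.3). The sites had 26.2 to 31.9% C and the same 4 gaps 19.9 to 23.4% C, again without overlap. The share of A was 34.1% in covered and 33.2% in uncovered bases. Gap 3, with 5 bases, held 2 A, 1 C, 0 G and 2 U and is too short for a share to mean much.

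The G content can be read in the sequences. Gap 2 (chrM:10721-10901) with 29 G in 181 nt, site 3 (chrM:10902-10977), which follows it, with 5 G in 76 nt, and gap 4 (chrM:11203-11266) with 12 G in 64 nt are given with every G in capitals.
gap 2: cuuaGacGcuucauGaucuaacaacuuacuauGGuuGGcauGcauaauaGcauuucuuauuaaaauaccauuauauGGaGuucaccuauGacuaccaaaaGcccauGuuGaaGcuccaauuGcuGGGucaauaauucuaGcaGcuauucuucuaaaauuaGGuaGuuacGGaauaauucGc
site 3: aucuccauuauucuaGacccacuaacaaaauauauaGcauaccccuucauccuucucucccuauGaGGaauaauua
gap 4: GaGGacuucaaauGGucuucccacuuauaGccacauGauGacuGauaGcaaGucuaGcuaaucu

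**Figure D2:**
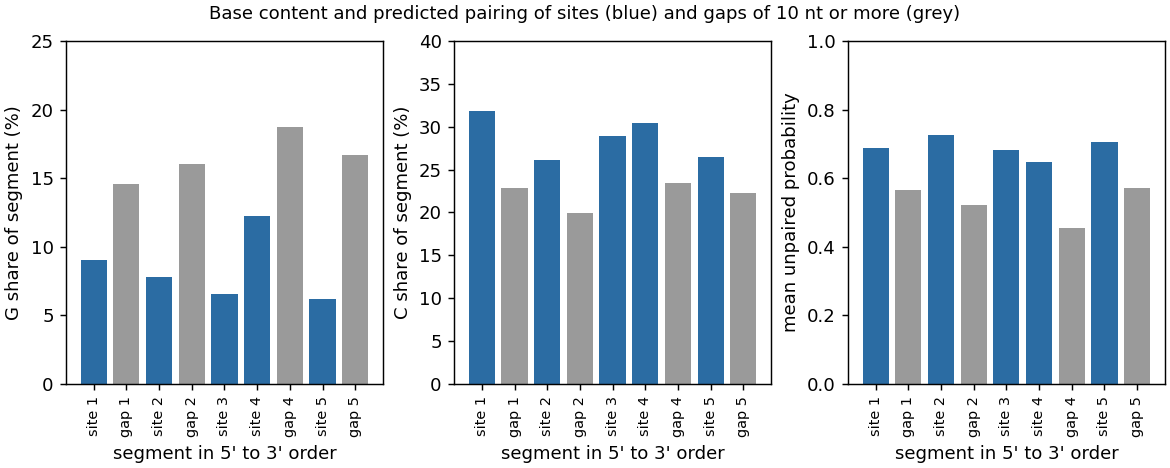
G share (%), C share (%) and mean predicted unpaired probability of each of the 5 sites (blue) and of the 4 gaps of at least 10 nt (grey), in 5′ to 3′ order along the x axis. There are no error bars because each bar is a single segment of 1 library. Every site lies below every gap in G (at most 12.3% against at least 14.6%) and above every gap in C and in unpaired probability.

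The difference in C was also read at the last position of codons alone, and the part of the encoded protein in it was not tested. At the last position of codons C made up 31.6% of covered and 16.8% of uncovered bases. The difference of 14.8 points was larger than over all positions. At the same positions U made up 20.8% of covered and 25.6% of uncovered bases, and A 45.3% and 51.2%. G was thus rare there in both groups. Its difference was -4.09 points, which the low share of G bounds, so its size cannot be compared with that over all positions. The encoded protein segments were compared by hydropathy and charge. Mean hydropathy was 0.79 over 432 whole codons in sites and 0.89 over 119 in gaps, a difference of -0.10 whose interval (-0.67 to 0.47) holds 0. Charged residues were encoded by 9.49% of codons in sites and 9.24% in gaps.

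Predicted secondary structure was set beside the sites. The probability of being unpaired was predicted from sequence alone, in windows of 150 nt, and is not a measurement in these cells. It averaged 0.70 over covered bases (SD 0.29 over bases) and 0.53 over uncovered bases (SD 0.32), a difference of 0.17 (0.13 to 0.21 if bases are treated as independent). Sites ranged from 0.65 in site 4 to 0.73 in site 2, and gaps of at least 10 nt from 0.46 in gap 4 to 0.57 in gap 5, without overlap. Gap 3, with only 5 bases, was left out of this range and had 0.88, above every site. G is the base most often predicted to be paired, with an unpaired probability of 0.28 in covered and 0.19 in uncovered bases, so that the G share and the predicted pairing are not independent measures. Among U alone the means were 0.68 and 0.52, a difference of 0.16. Among C they were 0.78 and 0.60, and among A, the most common base, 0.75 and 0.65. The contrast thus differed in size between bases. The uncovered junction lay above the mean of its gap. The 7 shared bases had a mean unpaired probability of 0.74, against 0.57 for gap 1 as a whole, which includes them. In a running mean along the mRNA, the unpaired probability already rose within the gap upstream of these bases. It went from 0.47 at nucleotide 235 of the mRNA to 0.59 at nucleotide 263. The shared bases thus lay toward the less paired end of the gap.

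The Nd4l/4 mRNA was then set beside the other 9 heavy-strand-encoded mRNAs, as a description of the same library without a test. It made up 15.4% of the bases of these 10 mRNAs and 19.2% of the 6791 covered ones. Its covered share was exceeded by that of Atp8/6 (96.4%), and the other mRNAs ranged down to 38.3% in Nd5. The number of sites lay within the range of the others, with 5 sites against a median of 3 in these 9 mRNAs of mostly shorter length, from 348 to 1824 nt. Its widest site (539 nt) was exceeded by that of Atp8/6 (688 nt), and its longest uncovered stretch of 181 nt stood beside a median of 135 nt in the others, from 26 nt in Atp8/6 to 769 nt in Co1.

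The contrast between covered and uncovered bases differed more. In the other 9 mRNAs the unpaired probability of covered minus uncovered bases ranged from -0.002 in Co1 to 0.07 in Co2, each below the 0.17 of Nd4l/4. With windows of 80 nt and pairs at most 40 nt apart the values were 0.01 to 0.09 in the others and 0.18 in Nd4l/4, and with 10 nt taken off both ends of each site they were at most 0.07 and 0.15. For G the difference ranged from -7.59 points in Nd3 to 1.83 in Nd1, and 1 of the other 9 mRNAs lay below Nd4l/4. For C it ranged from -0.39 in Co1 to 6.48 in Atp8/6, each below the 6.64 of Nd4l/4. In Atp8/6 812 of the 842 bases were covered, so its differences rest on few uncovered bases. Its rank beside Nd4l/4 is therefore uncertain. The value of Nd4l/4 was 2.76 once 10 nt were taken off both ends of its sites, and the other mRNAs were not recomputed for C with that setting.

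**Figure D3:**
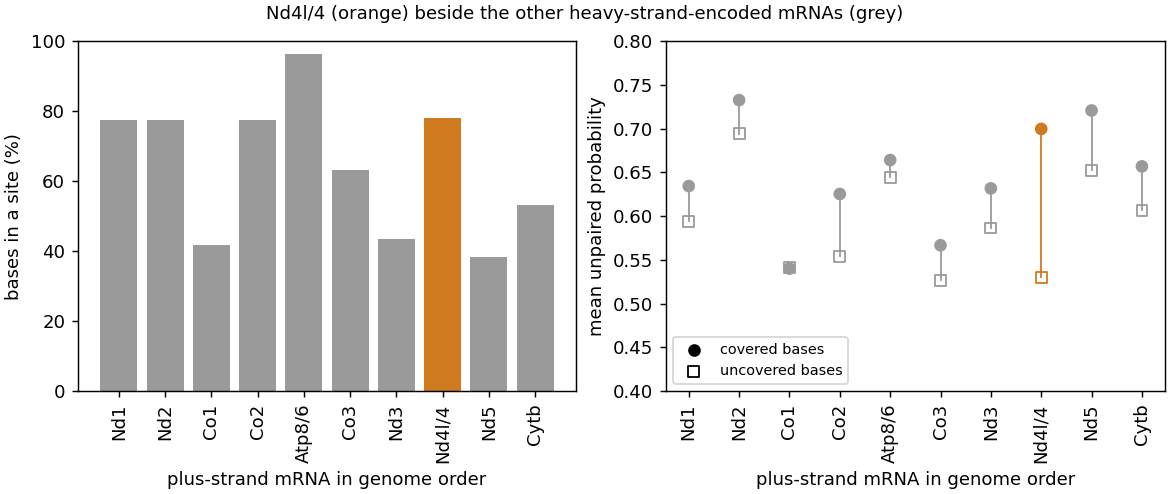
Left, share of bases in a site (%) for each heavy-strand-encoded mRNA, in genome order, with Nd4l/4 in orange. Right, mean predicted unpaired probability of covered (filled circles) and uncovered bases (open squares) of the same mRNAs, on an axis from 0.4 to 0.8; the line between both points is longest in Nd4l/4, at 0.70 and 0.53.

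Atp8/6 is the other mRNA with overlapping frames and differed from Nd4l/4 at the junction. Atp8 and Atp6, subunits of ATP synthase, share 43 bases, of which 43 were covered, against 0 of 7 in Nd4l/4. The upstream frame was covered over 100% of its bases in Atp8 and 70.4% in Nd4l, and the downstream frame over 95.6% in Atp6 and 79.5% in Nd4. At the 5′ end both were alike, with a first site beginning at the first base of Atp8 and 1 base before Nd4l. This was not particular to these mRNAs. The first site of Nd3 also began at its first base, and those of Nd2, Nd5 and Cytb began upstream of theirs. At the 3′ end the last site stopped 26 nt before the end in Atp8/6 and 18 nt before it in Nd4l/4. Among all 9 other mRNAs this distance had a median of 55 nt and was longer than in Nd4l/4 in 7.

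Short words were counted last, for 6 words of 4 nt taken from an earlier ranking of the same sites, so that the counts describe this mRNA and are no independent support. CACU occurred 15 times within sites (1.16 per 100 nt) and 1 time within gaps (0.29 per 100 nt). The other mRNAs held 0.70 per 100 nt over their whole length, sites and gaps together. That value is thus not matched to the sites or the gaps of Nd4l/4 alone. Every site held CACU, with 3 in site 1, 6 in site 2, 1 in site 3, 3 in site 4 and 2 in site 5, and the word in a gap was in gap 4. Gap 1, at the frame junction, held 0 CACU, while 52.1% of windows of the same 96 nt in the 10 mRNAs held at least 1. UCCC occurred 5 times in sites (0.39 per 100 nt) and 1 time in gaps (0.29 per 100 nt). Over the whole length of the other mRNAs it occurred 0.43 times per 100 nt. AGUC occurred 1 time in each, which is 0.08 per 100 nt in sites and 0.29 in gaps. Of the words that were rare in the earlier ranking, UGGU occurred 0 times in sites and 2 times in gaps, and AGUG and AGAG occurred 0 times in both.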

How the data were processed

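PAR-CLIP sites of 1 experimental library of MEFs were analysed. Reads were collapsed by their random barcodes, trimmed with cutadapt 1.10 and aligned by the authors with Bowtie 1.12 (versions per the submitters' processing notes) to mm10 with nuclear copies of mitochondrial DNA masked. They called crosslinked regions with BMix on each strand. The deposited list holds positions, and its name and score columns were 0 in every line as deposited, so the depth behind a site is unknown and sites were not ranked. A base outside all sites can be unbound or too thinly read.

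Starts were read as 0-based and printed as 1-based. Genes came from GENCODE vM21 and sequence from the RefSeq copy of the mitochondrial genome (16299 nt). Every site and gap of the mRNA is named. Members, words and measures were chosen with earlier results of these data known. Codons were read with NCBI genetic code 2 (Biopython 1.88), and unpaired probabilities with RNAplfold 2.7.2 on the whole plus strand (windows of 150 nt, pairs up to 100 nt apart), which ignores transcript ends. Intervals are 95% Wilson intervals, their Newcombe combination for differences of shares, and a normal interval for differences of means. They treat bases as independent, which neighbouring bases are not. Coverage counting was tested on simulated sites. Python 3.11.15 was used. With 1 library and no value per site, no test was made.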

Additional observations from a re-analysis of the deposited data

How the results depend on the processing

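Of 69 alternative values for 10 results, 8 moved. The other 61 lay inside the 95% interval of the reported value, or within a factor of 1.5 for counts and distances. These intervals treat bases as independent and measure no spread between libraries, so a value inside them can still have changed. The difference in C, for instance, fell from 6.64 to 2.76 points with trimmed sites. Taking 10 nt off both ends of every site removes covered bases by construction, and lowered the covered share to 72.2% of the mRNA, 64.0% of Nd4l and 73.7% of Nd4. It moved the site nearest to the frame overlap from 8 to 18 nt away. Dropping sites narrower than 147.5 nt, the median width of mitochondrial sites, removed site 3, and gave covered shares of 73.6% for the mRNA and 73.9% for Nd4. In windows of 50 nt that count any overlap the share was 85.3%. At the last position of codons the difference in C between covered and uncovered bases became 14.8 points. The difference in U, which was near 0, took values from -4.81 to 2.18 points under the alternatives run, all inside its interval. The differences in G, C and unpaired probability kept their sign under each alternative run, including those that left out each site or each gap in turn. For G the range was -8.37 to -4.09 points, for C 2.76 to 14.8 points and for unpaired probability 0.144 to 0.183. The alternatives for G and C, the comparison of U alone and the omission of single gaps were added after the data were examined. Depth per site is unknown, which limits all statements on gaps. No paired analysis was possible because sites of the control library were not analysed here.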

Other observations

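The bases next to the site edges were read for the 39 plus-strand mitochondrial sites, after the sites had been seen and without a test. The base before a site was G in 0 of 39 sites, U in 16, C in 13 and A in 10. A count of 0 allows a share of up to 7.69% (3 counts of 39, counting error only), and G made up 12.4% of the plus strand. The whole strand, with its rRNA and tRNA genes, is not a matched background. This position was also singled out after all edge positions had been read, so no conclusion is drawn from the 2 shares. On the Nd4l/4 mRNA the base before a site was U in 3 of the 5 sites, A in 1 and C in 1. The last base of a site was G in 2 of the 39 sites and in 0 of the 5 sites of Nd4l/4, where it was A in 3 and C in 2. The base after a site was G in 7 of the 39. How the edges of a called site relate to read ends was not tested, since the list holds no reads.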
